A study of Mus musculus with 13 samples.

Results

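The 10 genes described here encode the enzymes that carry long-chain fatty acids into mitochondria and take them through the chain-shortening steps of beta-oxidation: Cpt1a, Cpt1b, Slc25a20, Cpt2, Acadvl, Acadl, Acadm, Acads, Hadha and Hadhb. They were chosen by name, as textbook members of the pathway. All 10 were among the 33618 gene identifiers of the count table and all 10 were among the 16753 genes that passed the filter on low counts. RNA sequencing was performed on parametrial white adipose tissue (pmWAT), the fat beside the uterus, of 13 female mice with 1 library per mouse. The 7 fl/fl mice, the controls, carried Lmna alleles whose exons 10 and 11 are flanked by loxP sites, and the 6 iADKO mice, with an inducible adipocyte knockout, carried the same alleles together with an Adipoq-CreERT2 transgene. Lmna encodes lamins A and C of the nuclear envelope. Both groups received tamoxifen at 50 mg/kg on 5 consecutive days at 12 to 14 weeks of age and tissue was taken 2 weeks after tamoxifen, so the controls carried the floxed alleles and received tamoxifen but had no CreERT2. The Adipoq promoter limits recombination to cells that express adiponectin, whereas the sequenced RNA came from the whole depot. In such bulk tissue fewer cells of a type and less RNA per cell cannot be told apart.

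Long-chain fatty acids enter mitochondria as carnitine esters. CPT1 on the outer membrane makes acylcarnitine, the carrier encoded by Slc25a20 exchanges it across the inner membrane, and CPT2 returns it to acyl-CoA. Acyl-CoA dehydrogenases with preferences for very long, long, medium and short chains then catalyse the first step of each turn of the cycle, and for long chains the mitochondrial trifunctional protein, built from HADHA and HADHB, carries out the remaining steps. CPT1 is the step inhibited by malonyl-CoA, the product of acetyl-CoA carboxylase, and CPT1A and CPT1B are its liver-type and muscle-type forms. White adipocytes store fatty acids mainly as triglyceride and oxidise a smaller portion.

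The members lie on 8 chromosomes, and only Hadha and Hadhb are direct neighbours. In GRCm39 with GENCODE annotation, Hadha (ENSMUSG00000025745, chr5:30323302-30360187, minus strand) and Hadhb (ENSMUSG00000059447, chr5:30359204-30389997, plus strand) run head to head, and the first bases of their canonical transcripts are 65 bases apart. The 64 bases between them are shown because the canonical transcripts of both subunits of the trifunctional protein run outward from this stretch. The annotated genes as a whole overlap, and 16 of the 64 bases lie in annotated exons. The stretch is chr5:30360182-30360245 on the plus strand, with a GC content of 73.4%, and the capitals mark the hexamer GGGCGG.
Hadha-Hadhb interval: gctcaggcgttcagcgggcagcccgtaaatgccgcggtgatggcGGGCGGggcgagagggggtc

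PPAR and other nuclear receptors, which regulate this pathway in several tissues, bind DNA through the hexamer AGGTCA. The 250 bases upstream of each canonical start were searched on both strands, and AGGTCA occurred in 4 of the 10 members, compared with 11.6% of the windows of 14133 tested protein-coding genes. The 4 matches are shown in 30-base windows, 5′ to 3′ on the strand of the gene, with the hexamer or its reverse complement in capitals. They are Cpt1a at chr19:3373195-3373224 (plus strand, 64 bases before the start), Cpt1b at chr15:89310295-89310324 (minus strand, 87 bases before), Acadvl at chr11:69906324-69906353 (minus strand, 72 bases before) and Hadha at chr5:30360288-30360317 (minus strand, 124 bases before).
Cpt1a: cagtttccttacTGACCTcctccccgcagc
Cpt1b: gctgactcctggTGACCTtttccctacatt
Acadvl: atggatcaccctAGGTCAggtagaatacag
Hadha: ccgctgccaacaAGGTCAagtccagactga

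A direct repeat of AGGTCA with 1 base between the copies occurred in 0 of the 10 members and in 0.0354% of all windows. AAGGTCA, which contains AGGTCA and is the monomer form bound by ERR receptors, occurred upstream of Cpt1b and Hadha and in 3.22% of windows. GGGCGG, the core of a GC box, occurred upstream of 6 members (Cpt1a, Slc25a20, Cpt2, Acads, Hadha and Hadhb) and in 47.5% of windows, and CCAAT occurred upstream of Cpt1b and Acadl and in 35.5%. These matches describe the windows and no binding was measured. The genes with AGGTCA included the member that rose, the member that was not called and 2 of those that fell.

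Libraries held between 18854223 and 19776491 counts. Values are given below as CPM, the share of a library's counts that fall on a gene scaled to a common total, after TMM normalization, which scales each library by an estimated factor, and a gene was called when its Benjamini-Hochberg adjusted p in edgeR's quasi-likelihood test over all 16753 genes was under 0.05. Lmna itself was 84.7 ± 7.51 CPM across the 7 controls and 96.7 ± 11.5 CPM across the 6 knockouts (both SD), with an adjusted p of 0.0785. Counts cover the whole gene, so the genotype of each library rests on its label. By its marker genes, library fl/fl 5 stood apart from the other controls toward the knockouts, and iADKO 6 was the knockout nearest to the controls. The 7 adipocyte markers summed to between 16171 and 24886 CPM in fl/fl (fl/fl 5 was the lowest) and between 10301 and 17770 CPM in iADKO (iADKO 6 was the highest), and all 7 were called lower. The 9 macrophage markers summed to between 2220 and 5680 CPM in fl/fl (fl/fl 5 was the highest) and between 3363 and 5831 CPM in iADKO (iADKO 6 was the lowest), and 6 were called higher. Among all genes tested, 16.3% were called lower and 14.1% higher. With libraries scaled by total counts alone the calls became 7397 higher and 1276 lower and the median log2 fold change of all genes moved from 0.033 to 0.24, while the 8 lower members kept their direction with a median of -0.41. The library names hold animal numbers, which were grouped here into series. No label names such series or says what they stand for. Series 72x held 2 fl/fl and 2 iADKO mice, 74x-76x held 3 and 2, and the remaining series held 1 genotype each.

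Of the 10 members, 8 were lower in iADKO, 1 (Cpt1a) was higher and 1 (Cpt1b) was not called, beside 16.3% of all genes called lower, 14.1% called higher and 30.5% called in either direction. The median log2 fold change of the 10 was -0.59, against 0.033 over all genes. In 0 of the 10 genes did all iADKO values lie on one side of all fl/fl values, compared with 3.93% of all genes below and 2.71% above. In each of the 8 lower genes fl/fl 5 was the lowest control and iADKO 6 was the highest knockout. Without fl/fl 5 the ranges separated for 8 of the 10 genes, 7 below and Cpt1a above, where 10.1% of all genes then lay below and 6.58% above. The median log2 fold change of the 8 lower genes was -0.61 with all mice, -0.67 without fl/fl 5 and -0.77 without both fl/fl 5 and iADKO 6, and the 9 calls were made in each case.

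**Figure D1:**
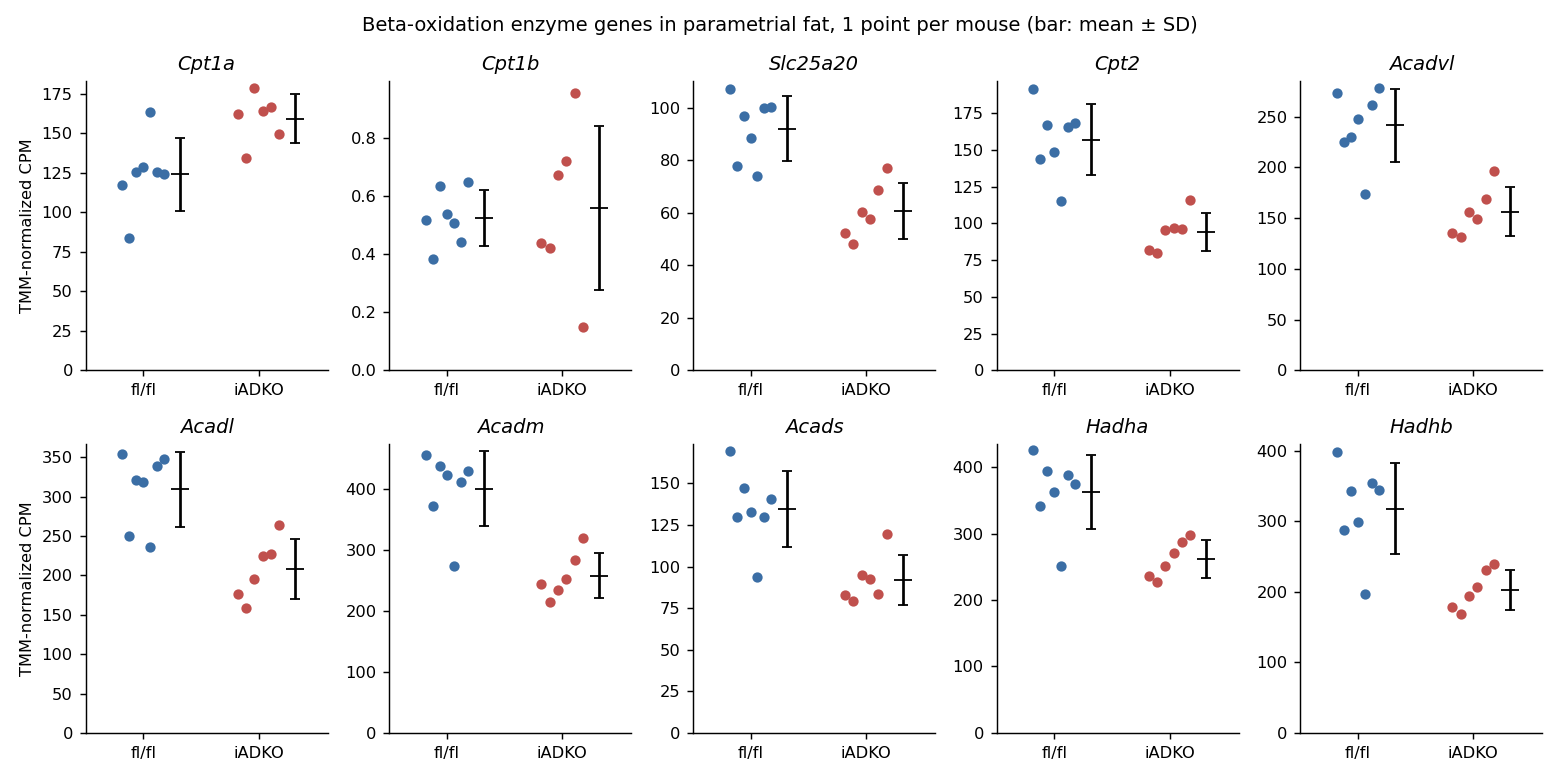
TMM-normalized CPM (vertical axes, each starting at 0) of the 10 genes, 1 point per mouse, with the mean and SD beside 7 fl/fl (blue) and 6 iADKO (red) mice. In the 8 genes that were lower, the lowest blue point is fl/fl 5 and the highest red point is iADKO 6. For Cpt1a the highest blue point is fl/fl 5 and the lowest red point is iADKO 2.

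At the entry step, Cpt1a rose and the genes of the later shuttle steps fell. Cpt1a (ENSMUSG00000024900, chr19:3371853-3437996, plus strand, 19 exons) ran from 83.8 CPM through a median of 125 to 163 in fl/fl and from 134 through 163 to 178 in iADKO. The groups overlapped, since fl/fl 5 was at 163.1 CPM and the other controls were at 128.4 CPM or less, and 3 of the 6 iADKO mice exceeded every control. The means were 124 ± 23.2 CPM over 7 controls and 159 ± 15.3 CPM over 6 knockouts (both SD), 28.3% higher in iADKO, with a log2 fold change of 0.36 (SE 0.115, adjusted p = 0.0293). An exact two-sided permutation test over the 1716 splits of the mice gave p = 0.00874.

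The direction for Cpt1a held in every alternative run, but its call did not. Cpt1a was not called without fl/fl 1 (log2 fold change 0.35, adjusted p = 0.0569) or without iADKO 1 (0.36, adjusted p = 0.0502), iADKO 3 (0.32, adjusted p = 0.0664), iADKO 4 (0.35, adjusted p = 0.0558) or iADKO 5 (0.35, adjusted p = 0.0564), so in these cases the fold change stayed between 0.32 and 0.36. It was not called when genes of low count were kept (log2 fold change 0.35, adjusted p = 0.0509) or with the animal-number series as a block (0.29, adjusted p = 0.145). With the mean of the macrophage markers as a covariate its log2 fold change shrank to 0.17, and with that of the adipocyte markers to 0.039. Cpt1a was not called in either run. Within series 72x its log2 CPM was 0.11 higher in iADKO and within 74x-76x it was 0.46 higher.

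Cpt1b, the muscle-type form, was near the detection limit. The gene (ENSMUSG00000078937, chr15:89300606-89310239, minus strand) had 7 to 12 raw counts per fl/fl library and 3 to 20 per iADKO library. Its means were 0.524 ± 0.0952 CPM across the 7 controls and 0.559 ± 0.283 CPM across the 6 knockouts (both SD). The log2 fold change was 0.095 (SE 0.313, adjusted p = 0.837), and no difference was detectable at these counts. Within series 72x and 74x-76x the difference of mean log2 CPM was -0.46 and -0.19, and over all mice this difference was -0.043. The annotated gene Gm44502, which is not a row of the count table, shares 68.5% of the Cpt1b exon bases on the same strand, so reads of the pair could not be separated. The 8 skeletal muscle markers, a tissue in which Cpt1b is abundant, summed to between 19.02 and 517 CPM in fl/fl and between 12.0 and 270 CPM in iADKO, and 0 of the 8 were called in either direction.

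Slc25a20, the carnitine-acylcarnitine carrier (ENSMUSG00000032602, chr9:108539250-108562760, plus strand), ran from 74.04 CPM through 96.9 to 107 in fl/fl and from 48.2 through 59.0 to 77.0 in iADKO. All knockouts but iADKO 6 were below every control. The means were 92.1 ± 12.5 CPM over 7 controls and 60.7 ± 10.6 CPM over 6 knockouts (both SD), a log2 fold change of -0.60 (SE 0.115, adjusted p = 0.00211). Cpt2, which reforms acyl-CoA in the matrix (ENSMUSG00000028607, chr4:107751473-107780812, minus strand), ran from 115 CPM through 166 to 191 in fl/fl and from 80.1 through 96.1 to 116 in iADKO. Here too 5 of the 6 knockouts were below every control, and iADKO 6 (115.9 CPM) exceeded fl/fl 5 (115.1 CPM) by less than 1 CPM. Mean Cpt2 was 157 ± 24.1 CPM over 7 controls and 94.5 ± 12.9 CPM over 6 knockouts (both SD), 39.9% lower, with a log2 fold change of -0.73 (SE 0.111, adjusted p = 5.73e-04). This was the largest change among the 10 members.

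All 4 acyl-CoA dehydrogenases fell, with log2 fold changes between -0.63 and -0.55. For Acadvl, the enzyme for very long chains (ENSMUSG00000018574, chr11:69900853-69906270, minus strand), values ran from 174 CPM through 248 to 278 in fl/fl and from 131 through 153 to 197 in iADKO. Its means were 242 ± 36.0 CPM over 7 controls and 156 ± 24.2 CPM over 6 knockouts (both SD), with a log2 fold change of -0.63 (SE 0.115, adjusted p = 0.00166), and 5 of the 6 knockouts lay below every control. The antisense gene Dvl2 covers 38.2% of the Acadvl exon bases, and whether counting used strand is not given in the sources used here.

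Acadl, which prefers long and branched chains (ENSMUSG00000026003, chr1:66868267-66902633, minus strand), ran from 235 CPM through 322 to 354 in fl/fl and from 159 through 209.9 to 264 in iADKO. Again 5 knockouts lay below all controls, and iADKO 6 lay above both fl/fl 5 and fl/fl 2. Mean Acadl was 309 ± 47.7 CPM over 7 controls and 208 ± 38.3 CPM over 6 knockouts (both SD), with a log2 fold change of -0.57 (SE 0.128, adjusted p = 0.00472). Acadm, the medium-chain enzyme (ENSMUSG00000062908, chr3:153627989-153650317, minus strand), ran from 273 CPM through 422 to 455 in fl/fl and from 215 through 248 to 319 in iADKO. Apart from fl/fl 5 all controls were at 371 CPM or more, above every knockout. The means of Acadm were 400 ± 61.5 CPM over 7 controls and 258 ± 37.4 CPM over 6 knockouts (both SD), with a log2 fold change of -0.63 (SE 0.118, adjusted p = 0.00175).

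Acads, the short-chain enzyme (ENSMUSG00000029545, chr5:115248357-115257405, minus strand), ran from 93.5 CPM through 133 to 169 in fl/fl and from 79.3 through 87.8 to 120 in iADKO. In 4 of the 6 knockouts it was below every control. Its means were 135 ± 22.9 CPM over 7 controls and 92.0 ± 14.8 CPM over 6 knockouts (both SD), with a log2 fold change of -0.55 (SE 0.123, adjusted p = 0.00492).

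Both subunits of the trifunctional protein fell. Hadha, whose product holds the hydratase and long-chain dehydrogenase activities, ran from 251 CPM through 375 to 425 in fl/fl and from 227 through 261 to 298 in iADKO. Mean Hadha was 363 ± 55.8 CPM over 7 controls and 262 ± 28.4 CPM over 6 knockouts (both SD), with a log2 fold change of -0.47 (SE 0.108, adjusted p = 0.00561). Hadhb, whose product holds the thiolase activity, ran from 198 CPM through 344 to 399 in fl/fl and from 169 through 200.1 to 240 in iADKO, with means of 318 ± 64.4 CPM over 7 controls and 203 ± 28.1 CPM over 6 knockouts (both SD) and a log2 fold change of -0.65 (SE 0.138, adjusted p = 0.00388). For both genes 3 of the 6 knockouts lay below every control, and all 6 lay below every control but fl/fl 5. Hadha shares 21.3% of its exon bases with the antisense gene Garem2 and 9.76% with Hadhb.

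Values within the animal-number series were set beside these changes. Within series 72x, which holds both fl/fl 5 and iADKO 6, the 8 lower genes differed by -0.30 to -0.085 on the log2 scale (median -0.22), and within 74x-76x by -1.04 to -0.73 (median -0.87). These are values from 2 or 3 mice a group, with no test. With the series as a block 5 of the 8 (Slc25a20, Cpt2, Acadvl, Acadl and Acadm) were called, while Acads (log2 fold change -0.52, adjusted p = 0.0702), Hadha (-0.45, adjusted p = 0.0657) and Hadhb (-0.60, adjusted p = 0.0561) were not. The median of the 8 was -0.60 with the block and -0.61 without it.

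Ratios of 2 members within a mouse asked whether genes with like roles differed in their change, and 5 pairs were compared. The pairs were chosen by role, with earlier results of these data known. Cpt2 was called lower and Cpt1a higher, so their ratio restates those calls and is not separate evidence. The log2 ratio of Cpt2 to Cpt1a, the matrix and outer-membrane acyltransferases, was between -0.50 and 0.78 in fl/fl and between -0.99 and -0.37 in iADKO. Only fl/fl 5 among the controls fell within the knockout range. The mean log2 ratio was 0.35 ± 0.42 (SD, n = 7) and -0.76 ± 0.21 (SD, n = 6), a difference of -1.11 (SE 0.18; exact two-sided permutation p = 0.00175, adjusted p = 0.00874 over the 5 pairs). In CPM this corresponded to 1.27 Cpt2 counts per Cpt1a count in fl/fl and 0.592 in iADKO. The direction was the same within series 72x (-0.42) and within 74x-76x (-1.50).

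Hadhb fell more than Hadha. Their log2 ratio was between -0.35 and -0.093 in fl/fl and between -0.42 and -0.31 in iADKO, and all knockouts lay below every control but fl/fl 5. The means were -0.20 ± 0.092 (SD, n = 7) and -0.37 ± 0.046 (SD, n = 6), a difference of -0.17 (SE 0.039; exact two-sided permutation p = 0.0035, adjusted p = 0.00874 over the 5 pairs). Within series 72x the difference was -0.041 and within 74x-76x it was -0.24.

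The other 3 pairs did not pass the threshold. Acadl to Acadm differed by 0.049 (SE 0.065; exact permutation adjusted p = 0.465) and Acads to Acadvl by 0.081 (SE 0.074; exact permutation adjusted p = 0.375) on the log2 scale. Cpt1b to Cpt1a differed by -0.42 (SE 0.29; exact permutation adjusted p = 0.216), a value that carries the counting noise of Cpt1b.

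**Figure D2:**
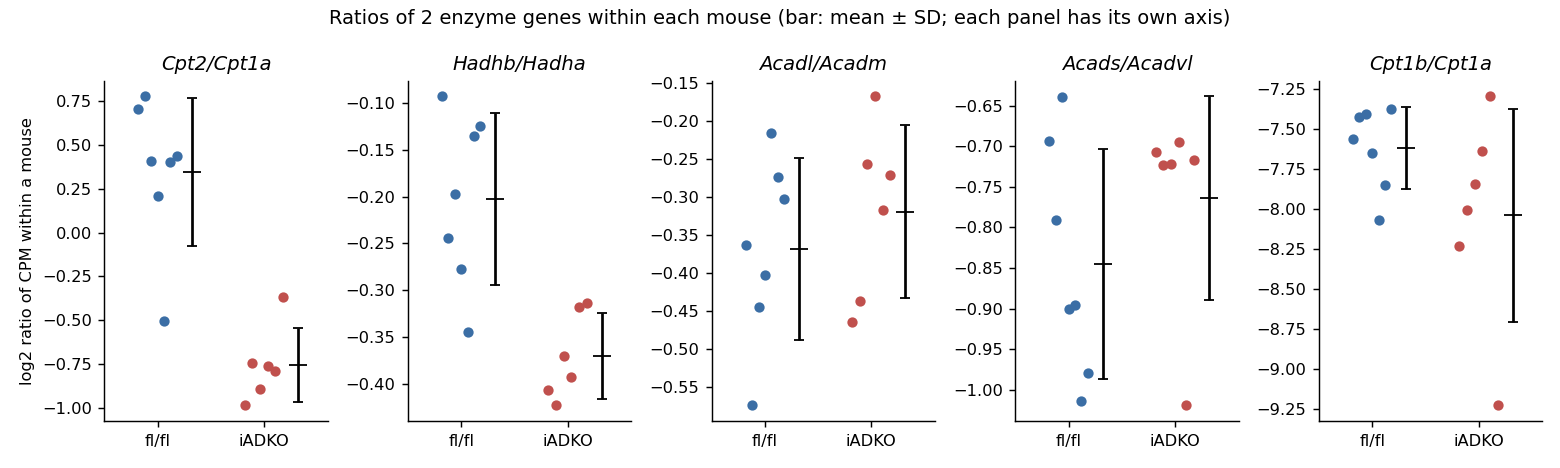
Log2 ratio of the CPM of 2 genes within each mouse (vertical axes, each panel with its own range) for 5 pairs, 1 point per mouse, with the mean and SD of 7 fl/fl (blue) and 6 iADKO (red) mice. For Cpt2/Cpt1a and Hadhb/Hadha all red points lie below all blue points but fl/fl 5, and for the other pairs the groups are mixed.

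Divided by the length of the canonical transcript, so that genes can be compared, the level of Acadm was the highest of the 10 at 194 ± 29.9 CPM per kb (SD, n = 7) in fl/fl. It was followed by Hadhb (156 ± 31.7), Acadl (124 ± 19.1), Acadvl (109 ± 16.3), Hadha (89.8 ± 13.8), Acads (72.1 ± 12.2), Cpt2 (66.1 ± 10.1), Slc25a20 (51.7 ± 6.99), Cpt1a (18.8 ± 3.51) and Cpt1b (0.172 ± 0.0312), all in CPM per kb with SD over 7 mice. The order was the same in iADKO, where Acadm was 125 ± 18.2 CPM per kb (SD, n = 6), Slc25a20 34.0 ± 5.97 and Cpt1a 24.1 ± 2.32. Each gene exceeded the next in all 7 fl/fl mice except for Acadl over Acadvl and Acads over Cpt2, which held in 6 of the 7, and in all 6 iADKO mice. On this scale Cpt1a was the lowest of the shuttle genes other than Cpt1b in both genotypes, and its distance to Slc25a20 was smaller in iADKO. The rank rests on the length used, 6594 bases for Cpt1a, 1783 for Slc25a20 and 2377 for Cpt2. In CPM the fl/fl means were 124 for Cpt1a, 92.1 for Slc25a20 and 157 for Cpt2. The iADKO means were 159, 60.7 and 94.5 CPM.

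**Figure D3:**
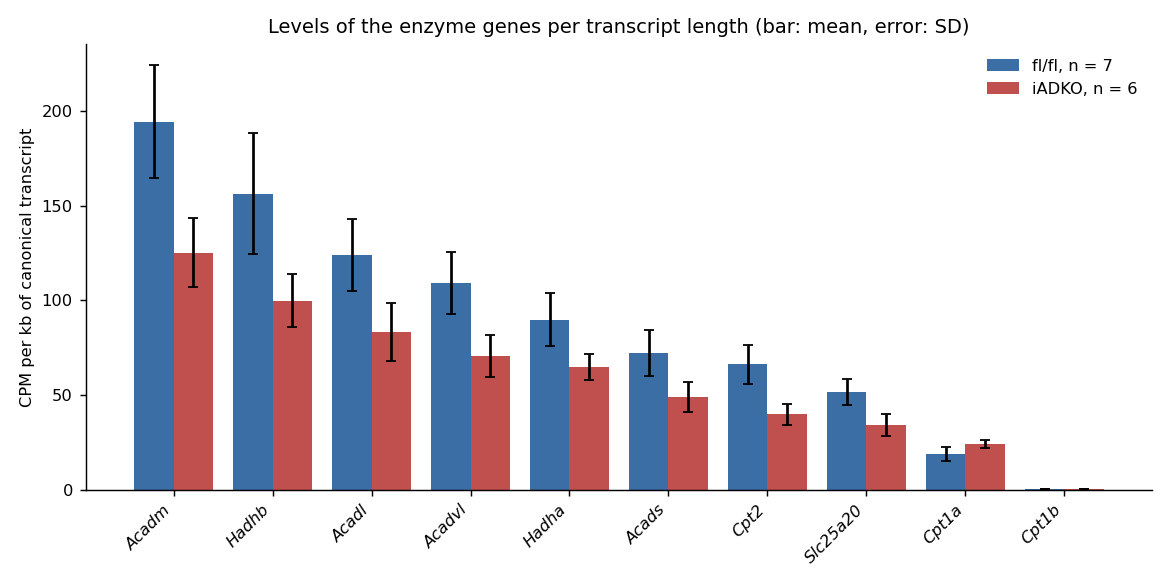
CPM per kb of canonical transcript (vertical axis from 0) of the 10 genes, as mean and SD of 7 fl/fl (blue) and 6 iADKO (red) mice, ordered by the fl/fl mean. The order runs from Acadm at 194 to Cpt1b at 0.172 CPM per kb in fl/fl and does not change in iADKO, and Cpt1a is the gene with a clearly taller red bar.

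The 8 lower genes moved together from mouse to mouse. After subtraction of each genotype's mean, their 28 pairwise correlations of log2 CPM over 13 mice ranged from 0.779 to 0.991 with a median of 0.906. Those of Cpt1a with each of the 8 ranged from -0.322 to 0.101 with a median of -0.225. In each of the 8 genes fl/fl 5 was the lowest control and iADKO 6 the highest knockout. No correlations without these mice, or among genes outside the pathway, are given beside them. The mice share library depth and tissue makeup across genes, and these correlations are descriptions.

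Among genes outside the 10, the profile most like the mean log2 CPM of the members was that of Etfdh, which passes electrons from the dehydrogenases to ubiquinone (Pearson r = 0.984, Spearman rho = 0.973 over 13 mice, as a description). It was followed by 4931406C07Rik (r = 0.971), Tmem242 (r = 0.966), the proteasome subunit gene Psmb7 (r = 0.964) and Aifm2 (r = 0.964). With each genotype's mean subtracted Etfdh was again first (r = 0.964, rho = 0.934), followed by 4931406C07Rik (r = 0.920), Gpr108 (r = 0.913), Tmem242 (r = 0.910) and Psma3 (r = 0.909). Gpr108 itself changed by -0.078 on the log2 scale (adjusted p = 0.198).

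Averaged on the log2 scale, the 8 lower genes and the adipocyte markers were both lower in fl/fl 5 than in the other controls and both highest in iADKO 6 among the knockouts. Relative to the fl/fl mean, the 8 enzymes were at -0.47 in fl/fl 5 and between -0.13 and 0.26 in the other controls, and the adipocyte markers were at -0.56 in fl/fl 5 and between -0.03 and 0.31 in the other controls. In the knockouts the enzymes ranged from -0.86 to -0.28 and the markers from -1.16 to -0.49. The other knockouts were not in the same order for both, since iADKO 5 had the lowest markers (-1.16) and, after iADKO 6, the highest enzymes (-0.49). Macrophage markers were at 0.71 in fl/fl 5 and 0.13 in iADKO 6, against 0.67 to 0.93 in the other knockouts. With the macrophage marker score as a covariate 0 of the 10 genes were called by edgeR, 4 were lower at an unadjusted p under 0.05, and the median log2 fold change of the 8 was -0.27. With the adipocyte marker score as a covariate 0 were called, 0 at an unadjusted p under 0.05, and the median was -0.058. Over all genes these covariates left 359 and 6 calls. Cpt1a was at 0.42 in fl/fl 5, like the knockouts (0.14 to 0.55), and its adjusted p was 0.649 with the macrophage covariate and 0.965 with the adipocyte covariate. Genotype and marker scores moved together, so the part of tissue makeup in these changes cannot be told apart from that of genotype.

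**Figure D4:**
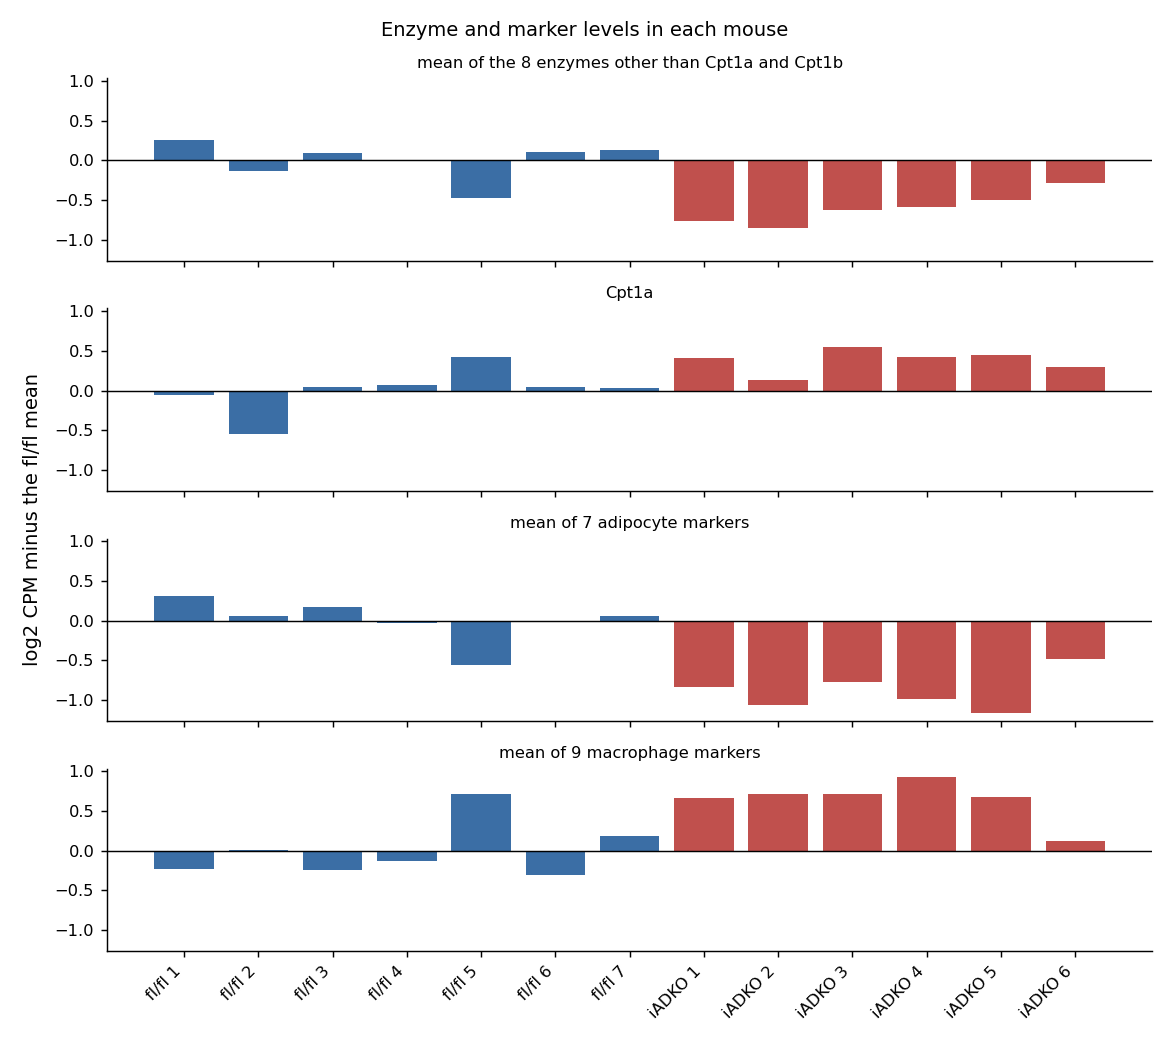
Mean log2 CPM minus the fl/fl mean (vertical axes) in each of 13 mice for the 8 enzymes other than Cpt1a and Cpt1b, for Cpt1a, for 7 adipocyte markers and for 9 macrophage markers. Bars of fl/fl 5 (-0.47, 0.42, -0.56 and 0.71 from top to bottom) point the same way as those of the iADKO mice in all 4 panels, and iADKO 6 has the shortest red bar for the enzymes (-0.28) and both marker lists.

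The rest of the pathway was described through lists chosen by function. Of the 7 other enzymes of the mitochondrial spiral, 6 were lower and 1 (Acaa2, log2 fold change -0.26, adjusted p = 0.0932) was not called, with a list median of -0.66. Echs1, the short-chain enoyl-CoA hydratase, fell from 253 ± 30.6 (SD, n = 7) to 151 ± 30.1 CPM (SD, n = 6) (log2 fold change -0.75, adjusted p = 6.76e-04). Eci1, which shifts double bonds of unsaturated chains, changed by -0.66 on the log2 scale (adjusted p = 0.00155). Hadh, the short-chain hydroxyacyl-CoA dehydrogenase, changed by -0.67 (adjusted p = 0.00169). Of the electron transfer genes that reoxidise the dehydrogenases, Etfa (-0.56, adjusted p = 0.00155) and Etfdh (-0.50, adjusted p = 0.00567) were lower on the log2 scale, while Etfb, counted at 4.41 ± 0.547 CPM (SD, n = 7) beside 192 ± 26.2 for Etfa in fl/fl, was not called (-0.31, adjusted p = 0.058). The counting tool and annotation are not given in the sources used here, and whether they set the low Etfb count was not tested.

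All 8 other members of the acyl-CoA dehydrogenase family were lower, with a list median of -0.62. Acadsb, which acts on branched short chains from isoleucine, fell from 362 ± 44.8 (SD, n = 7) to 177 ± 27.8 CPM (SD, n = 6) (log2 fold change -1.03, adjusted p = 1.21e-04). Ivd, of leucine breakdown, fell from 418 ± 46.3 (SD, n = 7) to 218 ± 39.7 CPM (SD, n = 6) (log2 fold change -0.94, adjusted p = 1.68e-04), and Acad12 changed by -0.68 (adjusted p = 1.19e-04). In these 3 genes and in Gcdh all iADKO values lay below all fl/fl values, while Acad8, Acad9, Acad10 and Acad11 overlapped. This separation held for none of the 10 members and for 3.93% of all genes. The 3 genes were named for the smallest adjusted p in their list, which favours separated ranges, so these shares are not a like comparison.

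The genes around carnitine and malonyl-CoA split. Crat, the acetyltransferase that exports acetyl groups as acetylcarnitine (log2 fold change -0.76, adjusted p = 2.56e-04), and the peroxisomal Crot (-0.33, adjusted p = 0.0025) were lower. The carnitine uptake transporter Slc22a5 (0.077) and the third CPT1 form, Cpt1c (0.13), were not called. All 3 genes that set malonyl-CoA were lower. Acaca, which makes malonyl-CoA for fatty acid synthesis, fell from 2707 ± 694 (SD, n = 7) to 757 ± 223 CPM (SD, n = 6) (log2 fold change -1.84, adjusted p = 2.00e-04). Acacb, the form placed at the mitochondrial surface, fell from 386 ± 109 (SD, n = 7) to 142 ± 50.9 CPM (SD, n = 6) (log2 fold change -1.45, adjusted p = 0.00125). Mlycd, which breaks malonyl-CoA down, changed by -0.57 (adjusted p = 8.65e-04).

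Of 8 transcriptional regulators of the pathway 6 were lower. Lpin1, a phosphatidate phosphatase that also acts as a PPAR coactivator, changed by -0.87 on the log2 scale (adjusted p = 0.0015), Pparg by -0.70 (adjusted p = 0.00405) and Rxra, the partner of PPARs, by -0.35 (adjusted p = 0.00454). The coactivator genes Ppargc1a (-0.44, adjusted p = 0.0976) and Ppargc1b (-0.26, adjusted p = 0.174) were not called.

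Downstream and parallel routes were lower as well. All 17 TCA cycle genes were called lower, with a median of -0.52, among them Sdha (-0.72, adjusted p = 5.71e-04), Ogdh (-0.68, adjusted p = 5.85e-04) and Idh3b (-0.52, adjusted p = 7.51e-04). Of 12 genes of peroxisomal beta-oxidation 10 were lower, with a median of -0.56. Amacr, a racemase for branched chains, changed by -0.62 on the log2 scale (adjusted p = 5.82e-04) and the transporter Abcd2 by -0.85 (adjusted p = 0.00116). Of 5 ketone body genes Oxct1 (-0.54, adjusted p = 5.57e-04) and Acat1 (-0.66, adjusted p = 9.90e-04), which are used in ketone breakdown, were lower and 3 were not called. In the 9 lists outside the 10 members 0 genes were called higher, so Cpt1a was the single higher call among the pathway genes examined.

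**Figure D5:**
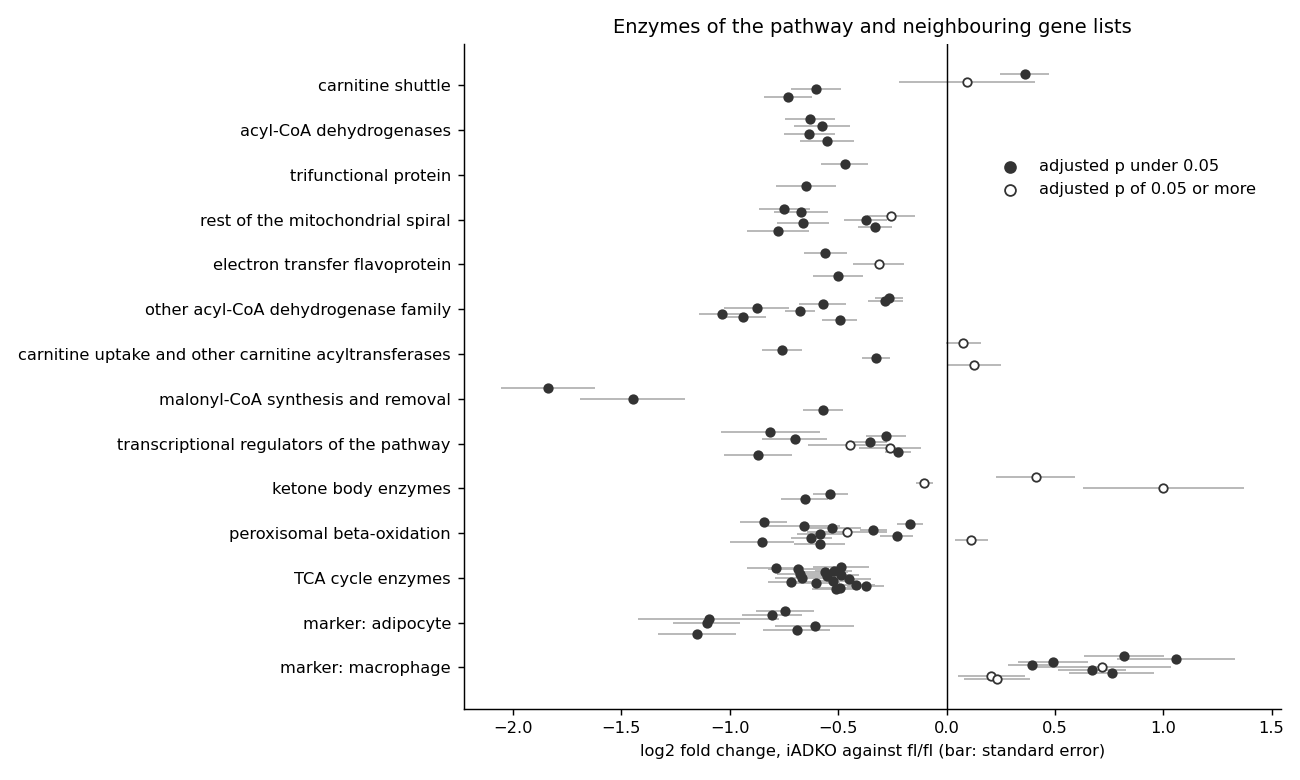
Log2 fold change of iADKO against fl/fl (horizontal axis) with its standard error for every gene of the member groups, the pathway lists and the adipocyte and macrophage markers, filled where the edgeR adjusted p was under 0.05 and open otherwise. Cpt1a (0.36) is the single filled point right of 0 among the metabolic lists, and the macrophage markers lie right of 0.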

How the data were processed

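The authors aligned paired 100-base reads of a strand-specific mRNA library to mm39 with STAR 2.7.11a, after quality checks in FastQC 0.12.1, and deposited raw counts per gene (whole numbers) with a table of DESeq2 rlog values, which are on a log2 scale. The counting tool, its strand setting and the annotation are not given in the sources used here. Counts were filtered with filterByExpr, scaled by TMM and tested with edgeR 4.0.16 (robust quasi-likelihood F test, R 4.3.3) on genotype, with Benjamini-Hochberg adjustment over 16753 genes and a threshold of 0.05. CPM for ratios used a prior count of 2. Ratios and single genes were tested by exact two-sided permutation over 1716 splits of 7 against 6 mice, for which the smallest p is 0.000583.

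Coordinates, transcripts and sequences came from GRCm39 and GENCODE vM39, in which 33184 of the 33618 identifiers were found. Totals of 18854223 to 19776491 counts were the depth of every value. Spread is given as SD or SE over mice, and no intervals were computed. The SE of an edgeR log2 fold change was derived from its size and the F statistic of the test. No pair of libraries of the same genotype agreed within sampling noise. Simulated data of 16753 genes were used to test the edgeR fit of iADKO against fl/fl: it recovered 78% of 100 genes changed by a log2 fold of 1 and 94% of 100 changed by 2, and 6.01% of its calls were false.

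The 10 genes, the gene lists, the 5 ratios and the tests were chosen with earlier results of these data known. Named genes of each list are those with the smallest adjusted p, at most 3 a direction, except 1 gene that is not reported here, and uncalled genes given beside them were chosen after their values were seen. Alternatives were other scalings, other filters, DESeq2, limma on the deposited rlog values, a replicate block, the animal-number series, marker covariates and each mouse left out. Leaving out fl/fl 5 together with iADKO 6 was added after seeing the data.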

Additional observations from a re-analysis of the deposited data

Results flagged for a closer look

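In 30 groups of values (10 genes and 5 ratios in each genotype) the extreme sample was compared with its neighbours by Dixon's ratio, the gap to the nearest value over the whole range. Chance alone flags about 1 group in 20, or 1.5 of 30, and 3 were flagged. Acadm in fl/fl 5 was at 8.10 log2 CPM, with the nearest control at 8.54, a ratio of 0.600. Hadha in fl/fl 5 was at 7.97 log2 CPM, with the nearest control at 8.41, a ratio of 0.582. The log2 ratio of Acads to Acadvl in iADKO 5 was -1.02, with the nearest knockout at -0.72, a ratio of 0.912.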

How the results depend on the processing

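Of the 10 genes 9 were called, and 8 or 9 when any 1 mouse was left out, Cpt1a being the call that was lost. Over all genes there were 5104 calls, between 3998 (without fl/fl 1) and 6604 (without fl/fl 5) with 1 mouse left out. Scaling by total counts gave 8673 calls, the animal-number series as a block 1986 with 5 members called, the macrophage score as a covariate 359 with 0 members, and the adipocyte score 6 with 0 members. The causes of these shifts were not tested. Cpt1b turned negative with the series block (-0.25), the macrophage (-0.38) and adipocyte (-0.72) scores and without iADKO 5 (-0.12), and reached 0.29 without iADKO 6. With the adipocyte score Acads (0.23), Hadha (0.056) and Hadhb (0.045) turned positive.

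The numbers in the labels were not shown to pair mice: deviations of same-numbered mice correlated at 0.107 on average, with a lowest value of -0.026, and 2 of 6 knockouts matched their own number best. A replicate block without fl/fl 7 gave 4833 calls and 9 members, with Cpt1b not tested. For the ratios the block gave -1.09 for Cpt2/Cpt1a (adjusted p = 0.156 by exact sign-flips) and -0.16 for Hadhb/Hadha (adjusted p = 0.156). With 6 pairs the smallest p is 0.0313. Within series 72x these differences were -0.42 and -0.041. With 1 mouse left out, Cpt1b/Cpt1a ran from -0.57 (without iADKO 5, where it passed the threshold, exact permutation adjusted p = 0.0463) to -0.18. Cpt1b held 3 to 20 counts per library, and whether depth or the counting of reads shared with Gm44502 set this was not tested.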

Other observations

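Brown or beige adipocyte genes, which are rich in beta-oxidation enzymes in thermogenic fat, were lower for 4 of 6 tested. Their summed level was 32.7 to 133 CPM in fl/fl and 17.2 to 56.1 CPM in iADKO. Ucp1, the uncoupling protein, was 15.8 ± 13.1 CPM over the 7 controls and 2.09 ± 2.41 CPM over the 6 knockouts, both SD (log2 fold change -2.92, SE 0.717, adjusted p = 0.00983 by edgeR).

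Markers of other cells of the depot were also examined. Of 5 endothelial genes 2 were lower, with Kdr changing by -0.48 on the log2 scale (adjusted p = 0.00151 by edgeR) and Cdh5 by -0.29 (adjusted p = 0.014). None of the 5 mesothelial and 5 adipose progenitor genes were called. Of 3 T cell genes Cd3d was higher by 0.63 (adjusted p = 0.00444), and of 4 B cell genes Cd79a and Cd79b were higher by 0.66 (adjusted p = 0.04995) and 0.79 (adjusted p = 0.0338).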
